A study of Mus musculus with 18 samples.

Results

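High and mid ECM tethering were compared on stiff StemBond gels by RNA sequencing of mESCs, mouse embryonic stem cells of the established E14 line. The comparison rested on 6 of the 18 libraries of the series, 3 from gels with 80 mM AHA (high) and 3 from gels with 48 mM AHA (mid), chosen by their labelled substrate. AHA is the acrylamide co-factor that anchors extracellular matrix (ECM) protein to the polyacrylamide network, and the study used its concentration to set tethering. The study describes rupture forces as levelling off on gels with high AHA, which limits mid against high AHA as a contrast of tethering strength. Both groups had the same stiffness (near 160 kPa), the same fibronectin coating and the same 24 h of culture in serum with LIF, the cytokine that maintains self-renewal. The other 12 libraries came from stiff gels with 16 mM AHA (low) and from soft gels (near 0.75 kPa) with 16, 48 or 80 mM AHA, 3 each, and all came from this 1 line. The labels do not say whether libraries of a group came from separate cultures, so p-values measure the spread between these libraries, which may be technical.

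Cells hold fibronectin through integrins, transmembrane receptors whose inner ends assemble focal adhesions and connect to contractile actin bundles. Force on these links is known to reach the nucleus through actin-sensitive SRF and through YAP, and integrin signalling through ERK is known to favour exit from naive pluripotency. The comparison asks which genes follow tethering when the gel is already stiff.

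Total gene counts of the 6 libraries were between 5850621 and 9290261, with a protein-coding share of 69.4 to 71.6%. At high and mid AHA, the share of ERCC spike-in was 0.684 ± 0.0294% and 0.676 ± 0.0147%, that of mitochondrial reads 6.31 ± 0.817% and 6.23 ± 0.149%, and that of unaligned reads 37.5 ± 1.05% and 37.3 ± 0.927% (SD, n = 3 each). Each of the 6 pairs of replicates was further apart than counting noise allows (chi-square per degree of freedom 1.99 to 2.80). Among the 10704 genes with higher expression, the median absolute log2 difference between 2 libraries was 0.120 to 0.137 for the 9 pairs of a high and a mid library and 0.123 to 0.131 for the 6 pairs within a group. The ranges for pairs between and within groups overlapped. The pluripotency genes used to check the label were expressed in every library, as the values of Pou5f1, Nanog and Esrrb given further on show.

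A single gene passed the test. Of 13438 protein-coding genes, Trrap was lower at high than at mid AHA and no gene was higher (edgeR quasi-likelihood test, Benjamini-Hochberg adjusted p under 0.05). That is 0.00744% of the genes tested in all and 0.00744% in the lower direction, and 0% in the higher direction. DESeq2 also called Trrap alone. At an unadjusted p under 0.05 there were 783 genes, 363 higher and 420 lower, where 671.9 would be reached by chance. The median log2 fold change over all genes was 0.0013 and the interquartile range ran from -0.094 to 0.098. In 1454 genes (10.8% of those tested) the high and mid libraries did not overlap, 713 (5.31%) with all high libraries above and 741 (5.51%) with all of them below.

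**Figure D1:**
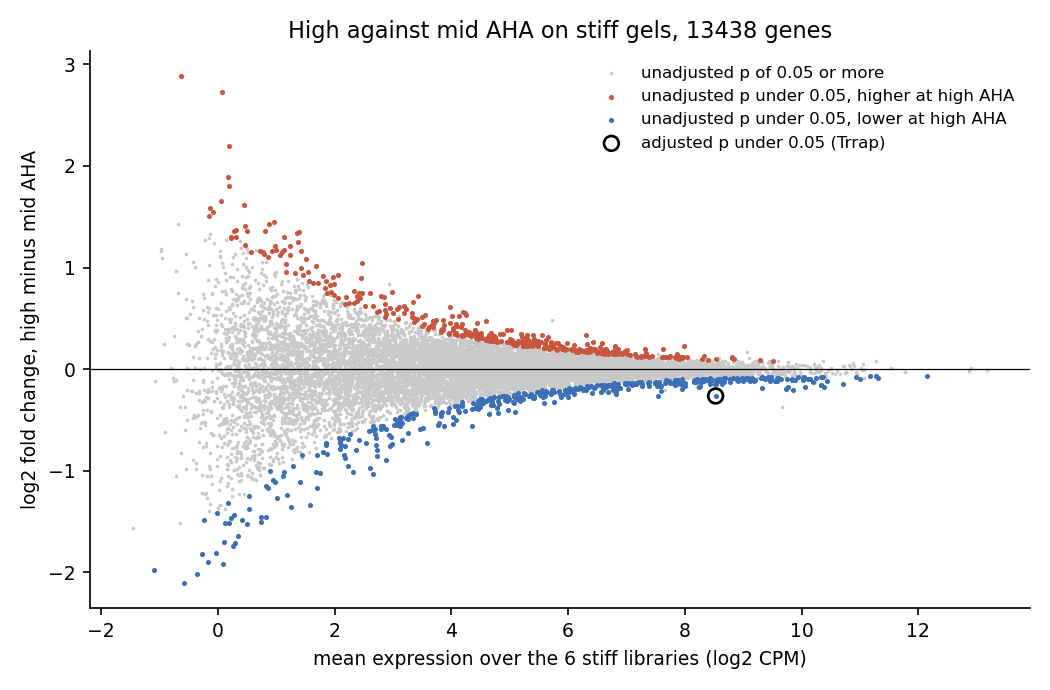
Each point is 1 of 13438 protein-coding genes. The horizontal axis gives its mean expression in the 6 stiff libraries (log2 CPM) and the vertical axis its fitted log2 fold change, high minus mid AHA. Red and blue points are the 363 higher and 420 lower genes with an unadjusted p under 0.05, and the circle marks Trrap, the gene with an adjusted p under 0.05; the cloud narrows towards high expression, where smaller differences could be resolved.

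Precision depended on expression. Among the 2523 genes above 100 CPM, the 95% interval of the log2 fold change lay within -0.5 and 0.5 in 99.7%, and within -0.25 and 0.25 in 93.1%. Of the 4873 genes between 20 and 100 CPM, 95.2% had an interval within -0.5 and 0.5. The same held for 29.98% of the 3302 genes between 5 and 20 CPM and for 0% of the 2733 genes under 5 CPM, where 25.5% had an interval within -1 and 1. Differences of that size in weakly expressed genes could therefore not be judged at this depth.

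Trrap encodes a very large pseudokinase of the phosphatidylinositol 3-kinase-related (PIKK) family, which lacks catalytic activity and serves as the docking subunit through which the TIP60 (NuA4) and SAGA histone acetyltransferase complexes meet transcription factors such as MYC. It lies on chromosome 5, 144767732 to 144859778 (GRCm38, plus strand), and its exons span 20859 bases without overlap with exons of an opposite-strand gene. At mid AHA its expression was 394, 397 and 417 CPM (the gene's counts scaled to library size), and at high AHA 346, 329.7 and 330.0 CPM. The groups did not overlap, and the lowest mid library stood well above the highest high library. The means were 403 ± 12.3 and 335 ± 9.11 CPM (SD, n = 3 each), a log2 fold change of -0.26 ± 0.046 (SE, 95% interval -0.36 to -0.17, adjusted p = 0.000920). Low AHA libraries on stiff gels lay in between, at 385, 378 and 369 CPM. Against them, Trrap was not called at high AHA (log2 fold change -0.17, adjusted p = 0.299), and mid AHA stood at 0.094; these 2 comparisons share libraries with the main one. On soft gels Trrap measured 376 to 403 CPM at mid AHA and 343 and 403 CPM in the 2 high AHA libraries used, with a log2 fold change of -0.054 ± 0.051 (SE). The difference between the stiff and the soft effect was -0.21 ± 0.069 (SE) and did not pass the test (adjusted p = 0.616).

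The Trrap call rested on few libraries. Its fold change stayed between -0.29 and -0.21 in all 17 alternatives, and 13 of them called it. It was not called without mid AHA replicate 3 (-0.24, adjusted p = 0.137) or without high AHA replicate 3 (-0.25, adjusted p = 0.0507), nor with gene-wise offsets for exonic length and GC content (-0.21, adjusted p = 0.0883). Per the file headers, the 3 mid libraries and high AHA replicate 1 carry 1 first sequencing index and high AHA replicates 2 and 3 another. With this index as a term, the comparison rests on high AHA replicate 1 against the mid libraries, and Trrap stood at -0.22 without a call. That 1 high AHA library was assumed to vary like those of the other groups.

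**Figure D2:**
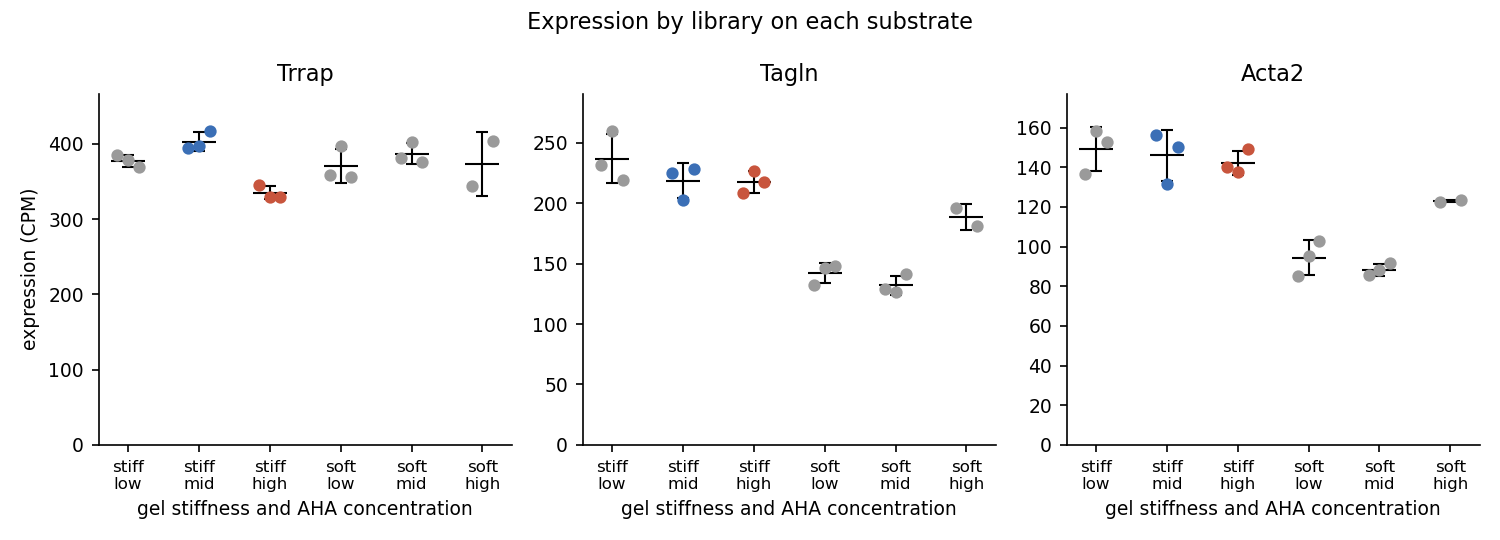
Expression (CPM, vertical axes starting at 0) of Trrap, Tagln and Acta2 in each of the 17 fitted libraries, by gel stiffness and AHA concentration; points are libraries, bars the mean and SD of a group, blue stiff mid AHA and red stiff high AHA. Trrap sat at 329.7 to 346 CPM on stiff, high AHA gels and at 394 to 417 CPM on stiff, mid AHA gels, while Tagln and Acta2 overlapped between them and were higher at high than at mid AHA on soft gels.

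Relatives of Trrap and members of its complexes were examined as 3 lists that contain it. Among the PIKK kinases and their dedicated TTT co-chaperone, 1 of 9 genes (Trrap) was called, 8 of 9 had values below 0 and the median log2 fold change was -0.11, beside 0.0013 for all genes tested. With length and GC offsets the median of this list, whose members had a median exonic length of 10338 bases, was -0.059. Prkdc, the DNA-dependent protein kinase of end joining, measured 63.9, 68.7 and 77.9 CPM at mid and 63.5, 62.9 and 48.4 CPM at high AHA (-0.27 ± 0.093, SE, adjusted p = 0.681). Atm, the kinase that senses double-strand breaks, measured 138, 140.1 and 155 CPM against 135, 129 and 123 CPM (-0.16 ± 0.064, adjusted p = 0.781). Smg1, a kinase of nonsense-mediated decay, measured 319.8, 319.5 and 363 CPM against 310.0, 318 and 298 CPM (-0.11 ± 0.048, adjusted p = 0.807). In these 3 genes every high library was below every mid library, though by a narrow margin for Prkdc and Smg1. With Trrap, 4 of the 9 listed genes were so separated, where 5.51% of all genes tested were separated in that direction. These shares are not like for like. The list was drawn up around Trrap, and its median exonic length was 10338 bases, against 4497.5 for all genes tested. Mtor, the growth kinase, gave 181, 159.6 and 183 CPM against 159.8, 155 and 163 CPM and overlapped (-0.13 ± 0.061, adjusted p = 0.848), as did Atr, the replication stress kinase (-0.086 ± 0.087). The co-chaperone genes Telo2 (-0.070), Tti1 (-0.017) and Tti2 (0.12), which help PIKK proteins fold, were not called and overlapped between groups.

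In the TIP60 complex, 1 of 18 members (Trrap) was called, 12 were below 0 and the median was -0.054 (-0.084 without high AHA replicate 2 and -0.036 without replicate 1). Ep400, its chromatin-remodelling ATPase, measured 387, 390.1 and 403 CPM at mid and 381, 366 and 357 CPM at high AHA (-0.096 ± 0.046, adjusted p = 0.843). Yeats4, a histone acyl-lysine reader of the complex, had the opposite sign (0.17 ± 0.085, adjusted p = 0.854). In the SAGA complex 1 of 19 tested members (Trrap) was called, 11 were above 0 and the median was 0.0050, ranging from -0.045 to 0.034 over the alternatives. Kat2b, an acetyltransferase listed for this complex beside Kat2a, stood at 0.15 ± 0.092 (adjusted p = 0.890). Its high libraries were at 61.4 to 66.5 CPM and its mid libraries at 52.7 to 59.9 CPM. Taf10 stood at -0.27 ± 0.12 (adjusted p = 0.813), but exons of opposite-strand genes cover 45.9% of it, and since it was not stated whether counting used strand, its reads cannot be told from theirs.

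Besides Trrap, 9 genes had the lowest p-values in the lower direction, and none of them was called. Rnf213, a giant ubiquitin ligase, came closest. It gave 189, 212 and 209 CPM at mid and 182, 164 and 162 CPM at high AHA, without overlap (-0.26 ± 0.057, SE, adjusted p = 0.0553). Fits that drew on the 6 libraries alone (adjusted p = 0.0254), on the 9 stiff libraries alone (0.0364) or on unfiltered genes (0.0147) called it, and so did the fits without mid AHA replicate 1 (0.0107) and without high AHA replicate 1 (0.00669). Over all alternatives its fold change ran from -0.32 to -0.17, the latter with the index term (adjusted p = 0.824). Exons of an opposite-strand gene cover 8.74% of Rnf213, whose reads there cannot be told from that gene's. The same limit holds for 10.3% of Nktr and 6.16% of Pcsk1n, and for 5.03 to 14.6% of Atr, Itgav, Idi1, Sall4, Pou5f1 and Tti2. Prrc2c, an RNA-binding protein of stress granules, measured 1729.7, 1725 and 1845 CPM against 1660.0, 1594 and 1531 CPM (-0.15 ± 0.034, adjusted p = 0.125). Hspg2, which encodes perlecan, a heparan sulphate proteoglycan of basement membranes, gave 1360.1, 1319.7 and 1379.5 CPM against 1298, 1146 and 1189.7 CPM (-0.16 ± 0.042, adjusted p = 0.579). Both were called with the 6 libraries alone (adjusted p = 0.0477 for Prrc2c and 0.0353 for Hspg2), with unfiltered genes (0.0257 and 0.0196) and without high AHA replicate 1 (0.0162 and 0.00669), and Hspg2 also with the 9 stiff libraries (0.0364). With the index term they stood at -0.090 and -0.059, and over all alternatives Prrc2c ran from -0.18 to -0.090 and Hspg2 from -0.21 to -0.059. Ago1, an Argonaute of the microRNA pathway (-0.25 ± 0.069), and Nktr, a cyclophilin-related protein (-0.21 ± 0.058), did not overlap between groups either.

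Others of these lower genes were weakly expressed. Rilpl2, a regulator of ciliary transport, measured 8.46 to 8.78 CPM at mid and 2.89 to 4.95 CPM at high AHA (-1.03 ± 0.28, adjusted p = 0.579). Pcsk1n, an inhibitor of a prohormone convertase (-0.56 ± 0.16), had separated groups. The histone gene Hist1h2ak, one of a family of near-identical copies and covered to 35.1% by exons of opposite-strand genes, overlapped, because high AHA replicate 2 stood at 14.9 CPM with the mid libraries (13.6 to 15.8 CPM) and the other two at 7.06 and 6.01 CPM. Without high AHA replicate 2 it was called (-1.17, adjusted p = 0.0178), a value whose reads may in part be those of the copies or of the opposite strand.

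None of the 10 genes with the lowest p-values in the higher direction was called, and their adjusted p ran from 0.190 to 0.579. In all 10 the high libraries lay above the mid libraries, a property shared by 713 genes and favoured by the way they were picked. Ndufs4, an accessory subunit of respiratory complex I, led with 69.8, 72.4 and 66.2 CPM at mid and 84.4, 93.9 and 86.6 CPM at high AHA (0.34 ± 0.082, SE, adjusted p = 0.190). Bag1, a co-chaperone of HSP70, measured 189, 177 and 184 CPM against 207, 214 and 210.2 CPM (0.20 ± 0.056, adjusted p = 0.579). Spc25, a subunit of the NDC80 kinetochore complex, gave 75.8, 94.0 and 91.9 CPM against 106, 102 and 105 CPM (0.25 ± 0.077). Rabggtb, the beta subunit of the enzyme that prenylates Rab proteins (0.20 ± 0.060), Arl4c, a small GTPase (0.26 ± 0.079), and Tbca, a tubulin-folding cofactor (0.48 ± 0.145), followed. Members with low CPM included Ghr, the growth hormone receptor (0.55 ± 0.17), and Tex14, a protein of germ cell bridges (0.54 ± 0.16). Psme2b, which resembles the proteasome activator gene Psme2 (0.61 ± 0.17), was another. Ahcy, which hydrolyses S-adenosylhomocysteine, had the fewest (1.05 ± 0.31, from 3.58 ± 1.61 to 7.52 ± 1.5 CPM, SD, n = 3 each). Whether these CPM were low because reads were lost to similar gene copies was not tested.

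**Figure D3:**
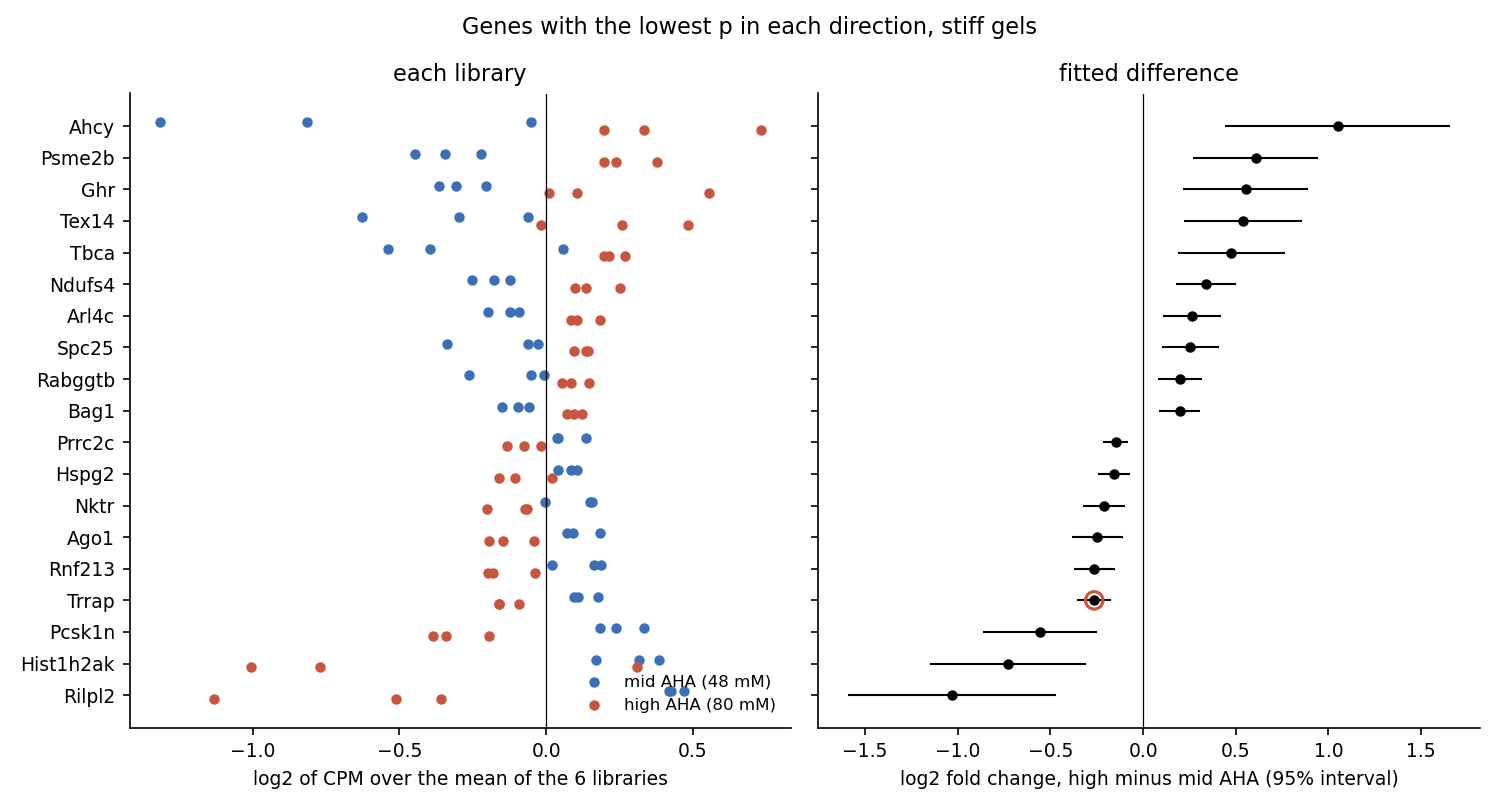
Genes with the lowest p in each direction and a mean of at least 5 CPM (10 higher and 9 of the 10 lower), sorted by log2 fold change. Left, the log2 ratio of each library's CPM to the mean of the 6 libraries, blue mid and red high AHA; right, the fitted log2 fold change, high minus mid AHA, with its 95% interval and Trrap circled. Intervals of strongly expressed genes such as Prrc2c (-0.15) and Trrap (-0.26) were short, and those of Ahcy and Rilpl2 long.

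Exonic length was compared between these named genes. The 10 lower genes had exonic lengths of 393 to 21283 bases with a median of 11213.5, and 6 of them were in the longest of 4 equal length classes of the tested genes (6903 bases or more). The 10 higher genes had a median of 2756.5 bases, and 1 was in that class. Over all genes of the longest class, 63 were higher and 211 lower at an unadjusted p under 0.05, 44.9% had a fold change above 0 and the median log2 fold change was -0.014. In the shortest class the numbers were 111 higher, 79 lower, 53.3% and 0.016. The median deviation of the longest class from the mean of the 6 libraries was 0.0032, 0.0012 and 0.032 (log2) in the mid libraries and 0.0085, -0.019 and -0.013 in the high libraries, so the groups overlapped and mid AHA replicate 3 stood highest. With 1 library left out, the longest class gave 55 to 84 higher and 106 to 225 lower genes, with a median from -0.027 to -0.00030. The lower genes were fewest without mid AHA replicate 3 (84 higher, 106 lower) and high AHA replicate 3 (73 and 132), and most without high AHA replicate 1 (64 and 225). The class gave 95 higher and 125 lower with length and GC offsets and 91 higher and 102 lower with the index term. On soft gels, high against mid AHA gave 133 higher and 96 lower in the longest class. The part of gene length in the values of Trrap and the other long genes was not tested beyond the fit with length and GC offsets, which left Trrap at -0.21 and not called (adjusted p = 0.0883).

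**Figure D4:**
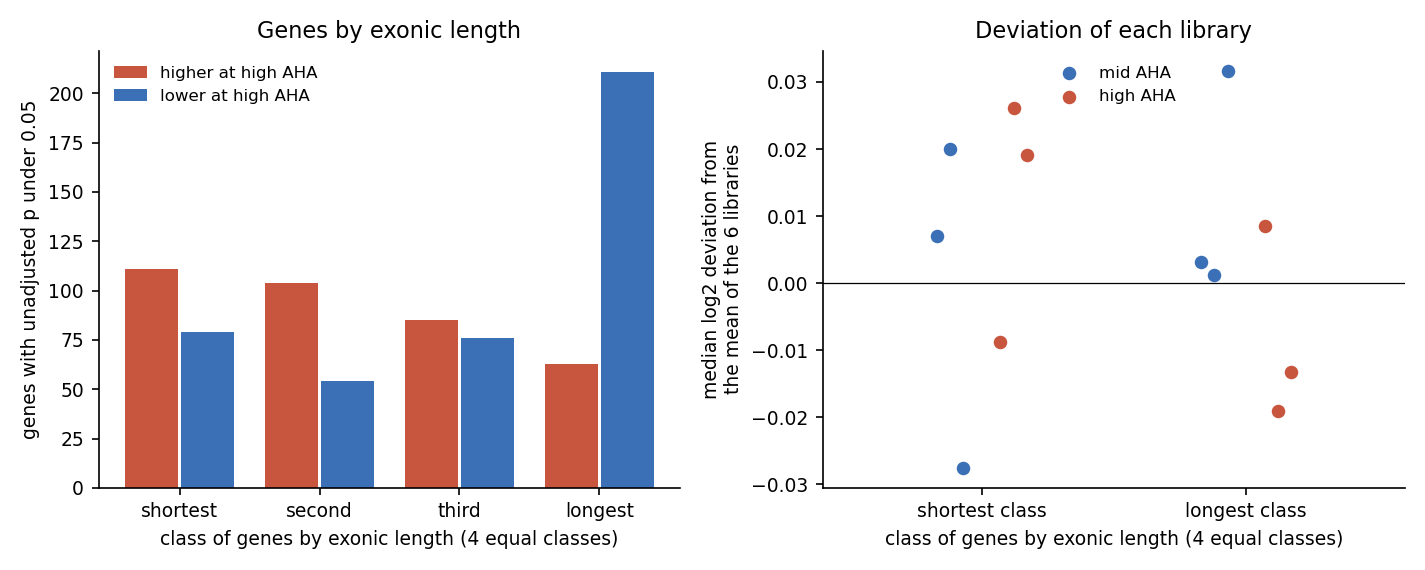
Left, the number of genes with an unadjusted p under 0.05 in each of 4 equal classes of genes by exonic length (bars from 0, red higher and blue lower at high AHA), with 211 lower and 63 higher in the longest class. Right, the median log2 deviation of the shortest and longest class in each library from the mean of the 6 libraries; 1 mid library, at 0.032, stood apart from the other two in the longest class.

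Adhesion genes were compared because tethering acts where integrins hold fibronectin. No integrin subunit was called among 15 tested, with 8 above and 7 below 0 and a median of 0.0075. List medians moved with the alternatives, for the integrins from -0.039 to 0.033. For other lists this range is given in brackets after the median. The fibronectin receptor is a pair of Itga5 and Itgb1. Itgb1, the shared beta subunit, gave 438, 442 and 412 CPM at mid and 458, 464 and 479 CPM at high AHA (0.12 ± 0.044, SE, adjusted p = 0.758). Itga5 gave 158, 145 and 157 CPM against 168, 164 and 179 CPM (0.15 ± 0.061, adjusted p = 0.758). Both were above mid in every high library, and neither passed the test; low AHA gels had means of 456 CPM for Itgb1 and 170.04 CPM for Itga5, close to high AHA. The third of the integrin genes of lowest p had the opposite sign. Itgb7, a beta subunit of leukocyte integrins, gave 12.2, 9.67 and 11.5 CPM against 7.83, 8.91 and 7.07 CPM, without overlap (-0.49 ± 0.23, adjusted p = 0.843). Itgav, which pairs with several beta subunits to bind fibronectin and vitronectin, measured 116, 111 and 104 CPM against 107, 111 and 115 CPM (0.0075 ± 0.071). The fibronectin gene Fn1 itself measured 1081, 1052 and 1115 CPM against 1041, 992 and 977 CPM, without overlap (-0.11 ± 0.037, adjusted p = 0.666).

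Of 24 focal adhesion plaque genes, 16 were below 0, with a median of -0.037 and none called. The median was -0.016 with length and GC offsets and -0.010 without high AHA replicate 2. The actin crosslinker Flna (-0.068 ± 0.035, adjusted p = 0.858) had every high library below every mid library, and Src, an adhesion-linked kinase, overlapped (-0.18 ± 0.086). All 24 values lay between -0.18 and 0.11. In the matrix and basement membrane list, 15 of 25 genes were below 0 with a median of -0.018 (-0.043 to 0.025) and none called. Its laminin gene Lama1 measured 152, 148 and 154 CPM against 147, 126 and 135 CPM (-0.14 ± 0.066, adjusted p = 0.843).

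The contractile list, which holds actins, transgelins, tropomyosins, myosins and other SRF targets, had 13 of 21 genes above 0, a median of 0.018 (-0.056 to 0.044) and none called. The non-muscle myosin heavy chain Myh10 measured 743, 712 and 744 CPM against 689.6, 663 and 670.1 CPM (-0.12 ± 0.039, adjusted p = 0.666), and its relative Myh9 overlapped (-0.082 ± 0.032, adjusted p = 0.758). Fhl2, a LIM protein that shuttles between adhesions and the nucleus, stood at 0.38 ± 0.17 (adjusted p = 0.840). Cald1, the actin-binding caldesmon, measured 682, 628 and 713 CPM against 712, 694 and 724 CPM (0.076 ± 0.043, adjusted p = 0.879), and the intermediate filament gene Vim 639.7, 563 and 590.5 CPM against 628, 617 and 614 CPM (0.053 ± 0.041). Both overlapped between the groups. YAP targets were split evenly, 9 above and 9 below 0 with a median of -0.0087 (-0.035 to 0.040) and none called; Lats2, a Hippo kinase that YAP induces, gave -0.23 ± 0.12 (adjusted p = 0.865).

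Tagln and Acta2 were the 2 genes whose response to AHA differed between stiff and soft gels (2 of 13438, 0.0149%). Tagln, an actin-bundling protein of contractile cells, measured 225, 202 and 228 CPM at mid and 208, 227 and 218 CPM at high AHA on stiff gels, a log2 fold change of -0.0067 ± 0.057 (SE). On soft gels it was 132 ± 7.99 CPM (SD, n = 3) at mid and 189 ± 10.7 CPM (SD, n = 2) at high AHA, a log2 fold change of 0.52. The difference of the 2 effects, stiff minus soft, was -0.52 (adjusted p = 0.000159). Acta2, smooth muscle actin, measured 156, 131 and 150.2 CPM against 140.0, 138 and 149 CPM on stiff gels (-0.030 ± 0.066), and 88.3 ± 3.01 against 123 ± 0.593 CPM on soft gels (0.48), a difference of -0.51 (adjusted p = 0.0101). In both genes the range of the high libraries on stiff gels lay inside that of the mid libraries, and their stiff mid and high means were above every soft mean. Of the Tagln exons, 67.9% overlap exons of a gene on the other strand. The Tagln difference passed the test in all 21 alternatives and the Acta2 difference in 12 of 21, where its adjusted p reached 0.277. Over the alternatives the difference ran from -0.62 to -0.45 for Tagln and from -0.58 to -0.46 for Acta2. In the 2 of these fits that left out a further soft, high AHA library, 1 library remained in that group. It was assumed to vary like those of the other groups.

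**Figure D5:**
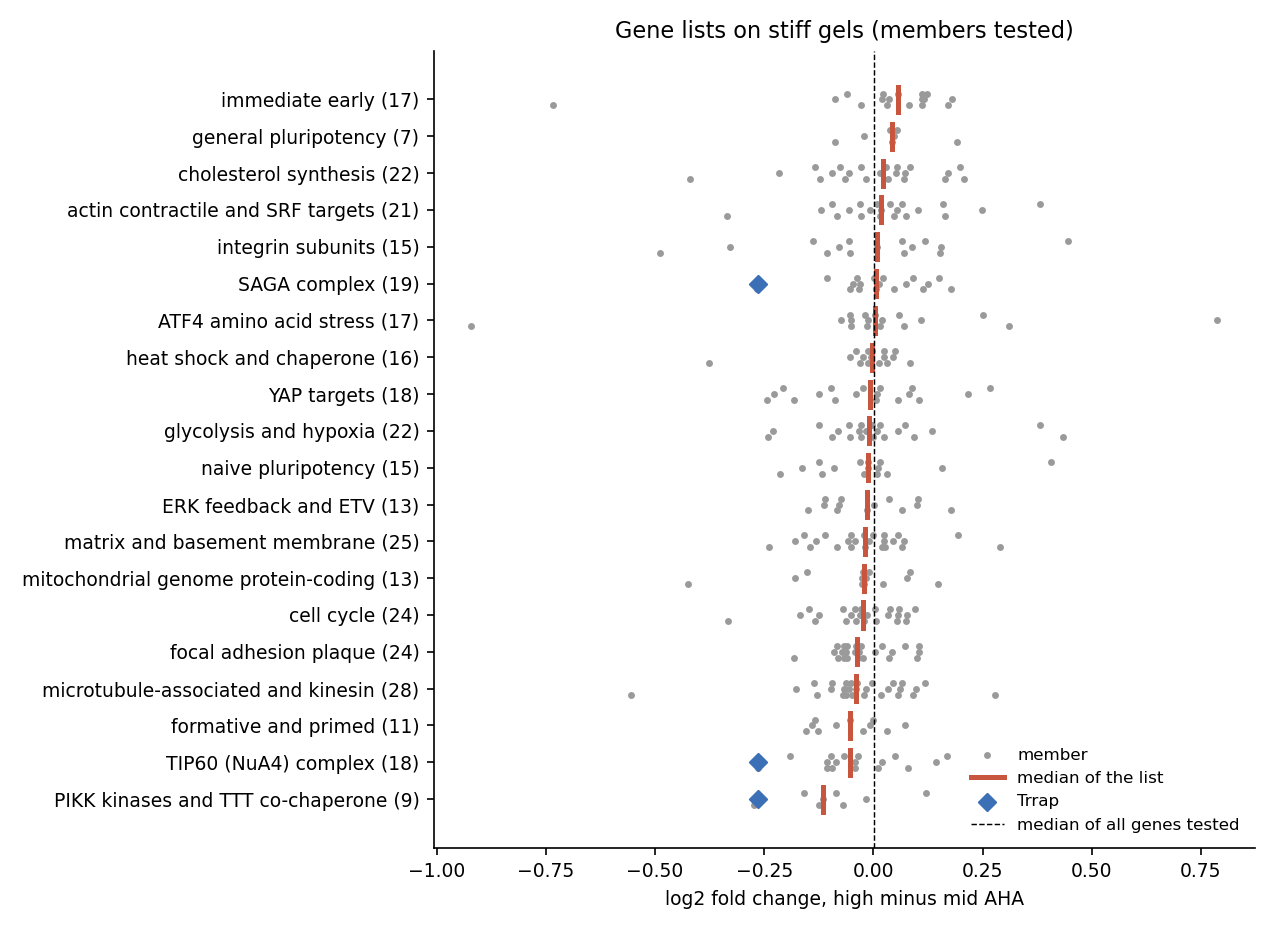
Fitted log2 fold changes, high minus mid AHA on stiff gels (horizontal axis), of the tested members of 20 gene lists, whose numbers stand in brackets. Grey points are members, red bars list medians, blue diamonds Trrap and the dashed line the median of all genes (0.0013); list medians lay between -0.11 (PIKK) and 0.057 (immediate early, 0.0050 to 0.110 over the alternatives).

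Pluripotency genes gave no calls. Of 7 general pluripotency genes, 5 were above 0, with a median of 0.042 (-0.0059 to 0.054). Pou5f1, the core factor OCT4, measured 530.5, 566 and 539 CPM against 518, 598 and 567 CPM (0.038 ± 0.042, SE, 95% interval -0.05 to 0.12), and Sall4, its zinc finger partner, 809, 767 and 803 CPM against 728, 744 and 766 CPM (-0.087 ± 0.037, adjusted p = 0.813). Of 15 naive genes, 6 were above and 9 below 0, with a median of -0.012 (-0.072 to 0.0021). Nanog, the naive factor that limits exit, measured 105, 118 and 102 CPM against 101, 102 and 103 CPM (-0.091 ± 0.070, interval -0.23 to 0.05). Esrrb, an orphan nuclear receptor of the naive network, measured 238, 246 and 238 CPM against 249, 229 and 247 CPM (0.0095 ± 0.050, interval -0.09 to 0.11). Tfcp2l1, which acts downstream of LIF, was the one among the 3 naive genes of lowest p without overlap, at 177, 195 and 194 CPM against 176, 174 and 169.5 CPM (-0.12 ± 0.056, adjusted p = 0.839). Formative and primed genes had 9 of 11 values below 0 and a median of -0.053 (-0.099 to -0.011); the de novo methyltransferase Dnmt3a stood lowest in p at -0.13 ± 0.057 (adjusted p = 0.813) and overlapped.

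Signalling and metabolic lists were likewise without calls. Immediate early genes had 13 of 17 values above 0 and a median of 0.057, which was 0.0050 without high AHA replicate 3 and 0.110 without high AHA replicate 2. Fos, the member with the lowest p, pointed down, at 9.23, 6.22 and 14.6 CPM against 6.60, 4.34 and 6.54 CPM (-0.73 ± 0.25, adjusted p = 0.666), with 1 mid library well above the rest. ERK feedback genes gave 6 above and 7 below 0 with a median of -0.014 (-0.091 to 0.017), among them the ERK phosphatase Dusp4 at 0.10 ± 0.062. Cholesterol synthesis genes gave 12 of 22 above 0 and a median of 0.023 (-0.011 to 0.042). Within that pathway, Idi1, which isomerises isopentenyl diphosphate, measured 20.3, 21.8 and 17.8 CPM against 14.0, 15.9 and 15.2 CPM (-0.42 ± 0.17, adjusted p = 0.758), whereas the sterol oxidase Msmo1 gave 0.20 ± 0.091 (adjusted p = 0.843). Glycolysis and hypoxia genes gave 9 of 22 above 0 and a median of -0.0100 (-0.024 to 0.014), with the hexokinase Hk1 at 68.2, 61.5 and 60.1 CPM against 50.03, 57.6 and 53.6 CPM (-0.24 ± 0.095, adjusted p = 0.758).

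Microtubule genes included Map1b, a microtubule-stabilising protein of growing neurites. It measured 412, 391 and 440.1 CPM at mid and 390.5, 373 and 372 CPM at high AHA (-0.13 ± 0.045, SE, adjusted p = 0.740). Its mean at low AHA on stiff gels was 441 CPM. Between high and low AHA on stiff gels it was the 1 gene called (-0.22, adjusted p = 0.0342, same edgeR test). That contrast shares the high libraries with the main one. The dynein heavy chain Dync1h1 gave 1047, 1139.9 and 1203 CPM against 1038, 987 and 974 CPM (-0.18 ± 0.070, adjusted p = 0.819); it was called in the fits of the 6 libraries alone (adjusted p = 0.0168), of the 9 stiff libraries (0.0292) and of unfiltered genes (0.0184). The list as a whole had 18 of 28 values below 0, a median of -0.039 and no call, and its median was -0.00705 with length and GC offsets and -0.063 to -0.0041 with 1 library left out. Cell cycle (14 of 24 below 0, median -0.025, range -0.052 to -0.012), heat shock (9 of 16 below 0, median -0.0037, range -0.019 to 0.020), ATF4 stress (8 of 17 below 0, median 0.0037, range -0.027 to 0.015) and mitochondrially encoded genes (9 of 13 below 0, median -0.021) had no call either. The mitochondrial median was -0.178 without high AHA replicate 1, 0.081 without high AHA replicate 3 and 0.26 with the index term. Among these genes, mt-Co3, a subunit of cytochrome oxidase, stood at 0.15 ± 0.069 (adjusted p = 0.843).

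Genes that respond to stiffness were taken from low AHA libraries. These are outside the contrast of high and mid AHA but share its estimate of the spread. Calling favours genes with a small estimated spread, so their shares at an unadjusted p are not like for like with those of all genes. Of the 408 genes called between soft and stiff gels at low AHA, 294 were lower and 114 higher on soft gels. None of the 408 was called between high and mid AHA on stiff gels. Over all genes tested, 50.4% had a log2 fold change above 0, the median was 0.0013, and 2.70% were higher and 3.13% lower at an unadjusted p under 0.05. Of the 294 genes that favoured stiff gels, 60.2% were above 0 at high AHA and the median was 0.021, with 21 higher (7.14%) and 12 lower (4.08%) at that p. Of the 114 genes that favoured soft gels, 39.5% were above 0 and the median was -0.014, with 1 higher (0.877%) and 11 lower (9.65%). Over the alternatives these medians ran from 0.0039 to 0.039 and from -0.030 to -0.012. With length and GC offsets they were 0.026 and -0.013. Median exonic length was 5006.5 bases for the 294 genes, 6585 for the 114 and 4497.5 for all genes tested.

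Markers of other cell types were examined as 5 lists. Summed over the list, 9 primitive endoderm markers took 50.8 to 56.3 CPM at mid and 46.5 to 52.0 CPM at high AHA, 6 trophectoderm markers 117 to 128 and 116 to 131 CPM, 5 mesendoderm markers 13.4 to 20.4 and 13.2 to 17.6 CPM, 5 neural markers 97.2 to 109.8 and 99.96 to 106 CPM, and 7 fibroblast markers 166 to 233 and 165 to 198 CPM. The ranges overlapped in all 5 lists, and no marker was called. The median log2 fold change was -0.157 for the primitive endoderm markers, with 7 of 9 below 0, -0.032 for 5 tested trophectoderm, -0.140 for 4 mesendoderm, 0.026 for 3 neural and -0.095 for 5 fibroblast markers, beside 0.0013 for all genes. Mesp1, Neurog2, Dcn and Lum had at most 3 counts in any of the 6 libraries.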

How the data were processed

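The authors extracted total RNA from 18 samples, made pico-input libraries, and, per the submitters' processing notes, trimmed reads with Trim Galore 0.4.4, aligned them with GSNAP to mm10 (GRCm38) and counted them with HTSeq. Raw counts per gene were deposited, without normalisation, and no strand setting was given in the sources used here. The 5 summary lines, 92 ERCC and 7 SIRV rows entered no library size and no test (reads not aligned 36.4 to 38.5% and outside genes 23.7 to 24.6% of a column in the 6 stiff libraries compared). GENCODE M21 (GRCm38) named 45143 of 46078 genes, 21519 of them protein-coding.

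Groups followed the labels, and replicates were numbered in sample order, so they pair nothing. Protein-coding counts that passed filterByExpr (minimum count 10) were scaled by TMM and fitted with edgeR 4.0.16 (R 4.3.3, robust quasi-likelihood, 1 coefficient per group) over 17 libraries. Soft, high AHA replicate 1 was left out for its ERCC share (1.37%, against 0.607 to 0.725% elsewhere), since the study set such libraries aside. Standard errors came from the F statistic and p-values were adjusted by Benjamini-Hochberg over all 13438 genes. CPM were counts scaled to the TMM library sizes. The scripts were tested on simulated data. The biological coefficient of variation was 5.35%. Alternatives were RLE factors, DESeq2 1.42.0, other filters, library sets and biotypes, a fit that was not robust, length and GC offsets, and each library left out; the sequencing index as a term was added after seeing the data.

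Named genes were those called, the 10 of lowest p in each direction with at least 5 CPM, the 3 of lowest p in each list, all PIKK members, 12 fixed genes, those called in the difference between stiffnesses and those called in at least 3 alternatives with all 6 libraries; the text describes most of these 90, and 2 of them are not reported here. The comparison, lists and rules were chosen with earlier results of these data known. Lists came from general knowledge. Sequences were not printed.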

Additional observations from a re-analysis of the deposited data

Results flagged for a closer look

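The response to AHA differed between stiff and soft gels for 2 genes by the test of the difference itself (edgeR's quasi-likelihood test, Benjamini-Hochberg over 13438 genes). The difference, stiff minus soft, of the log2 fold change of high against mid AHA was -0.52 for Tagln (adjusted p = 0.000159) and -0.51 for Acta2 (adjusted p = 0.0101). The soft, high AHA group had 2 libraries in this test, since replicate 1 was left out. With all 18 libraries the same 2 genes were called, and without soft, high AHA replicate 2 or 3, which leaves 1 library in that group, Acta2 was not. Groups of 3 libraries were too small to test for a library apart.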

How the results depend on the processing

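The count of genes called between high and mid AHA on stiff gels was 1 under RLE factors, DESeq2, a minimum mean of 5 CPM, all 18 libraries, all biotypes and the fit that was not robust, and in each of these the gene was Trrap. It was 10 with no filter on low counts, 7 with the 6 libraries compared, 4 with the 9 stiff libraries, 0 with length and GC offsets and 2 with the first sequencing index as a term, where the 2 genes were mt-Nd1 and mt-Atp6 and Trrap was not among them. Leaving out 1 library gave 0 to 5 genes, with 0 without stiff, mid AHA replicate 3 or stiff, high AHA replicate 3 and 5 without stiff, high AHA replicate 1. Genes with a different response on stiff and soft gels numbered 2, against 1 with DESeq2, 3 with no filter (Cald1 added), 3 in the fit that was not robust (Col1a1 added) and 4 with the index term, and 1 to 4 when 1 library was left out. The causes were not tested.

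The 90 named genes gave 1526 values under the alternatives, of which 1487 kept their direction and side of the threshold. The sign turned for 11 genes, none of them called in the comparison. With the index term it turned for Lin28a (-0.0059), Zic2 (0.048), Itgav (-0.039), Pou5f1 (-0.074) and Atr (0.044). With 1 library left out, log2 fold changes ran over 0 for Itgav (-0.027 to 0.042), Pou5f1 (-0.0082 to 0.093), Esrrb (-0.014 to 0.045), Tagln (-0.060 to 0.030), Acta2 (-0.10 to 0.019), Telo2 (-0.18 to 0.019), Tti1 (-0.044 to 0.025) and Tti2 (-0.031 to 0.23). The medians of the 20 lists and of the 2 groups of stiffness-responsive genes gave 374 values, of which 356 moved by less than the spread between replicates. Of these 22 medians, 13 turned sign in at least 1 alternative and 0 under RLE factors, DESeq2 or length and GC offsets. The 18 values that moved by more were, with the index term, general pluripotency (-0.0059), integrin (-0.039), contractile (-0.056), YAP (0.040), ERK feedback (-0.091), SAGA (-0.045), glycolysis (0.014), mitochondrially encoded (0.26) and cell cycle genes (-0.052); with length and GC offsets, PIKK (-0.059) and microtubule genes (-0.0070); and with 1 library left out, naive pluripotency (-0.072), TIP60 (-0.084), cholesterol (-0.011), cell cycle (-0.012) and, in 3 fits, microtubule genes (-0.063 to -0.0041). Depth limited genes under 5 CPM, and 3 libraries a group cannot reach p under 0.1 in a permutation test.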
